A study of Columba livia with 9 samples.

Results

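The pigeon bursa of Fabricius (BF) data list 19129 lncRNAs, of which 2540 carry an NCBI gene number and 16589 carry a number from the authors' transcript assembly. The transcripts described here are the 200 lncRNAs with an NCBI gene number that had the highest median TPM over the 9 libraries. TPM give each transcript's share of a library, corrected for transcript length and scaled to a fixed sum. The 200 were chosen by their level, which is therefore given as a description. Their change between stages and their spread between squabs were not ranked. A median over 9 libraries does leave out lncRNAs that are high in a single stage or in few squabs. Where the 200 are set beside all lncRNAs, the sets are therefore not matched in level. The 9 libraries came from the BFs of 9 White King squabs, all female and with no treatment stated, with 3 libraries, each from a separate squab, at each age, namely 1 day after hatching (1D), 13 days (13D) or 26 days (26D). The BF was sequenced as a whole tissue, so fewer cells of a type and less RNA per cell cannot be told apart in any value below.

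Long non-coding RNAs are transcripts without a recognised open reading frame, usually less abundant than mRNAs, and many of them act in the nucleus on the transcription of genes near them or serve as scaffolds for protein complexes. Whether a transcript is entered in a gene catalogue as a lncRNA or as an mRNA depends on the coding potential computed for the transcript models known at that time, so that short proteins and incomplete models are easily misplaced. The BF is the organ in which birds make their B cells. B cell precursors colonise its epithelial buds before hatching, proliferate in follicles and diversify their immunoglobulin genes there, while fibroblasts, smooth muscle and vessels form the wall and the folds around the follicles.

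In each library mRNAs and lncRNAs together made up 991214 to 997459 TPM and so share a scale, but TPM carry no read counts and the counting error of a value is unknown. The B lineage list of markers (20 of 23 genes measured) summed to 1988 to 2675 (1D), 2823 to 4082 (13D) and 2365 to 4304 TPM (26D), where 26D overlapped both other stages, and the T lineage list (9 of 12 genes measured) to at most 55.1 TPM. One library stood apart. In 26D replicate 1 a single lncRNA took 69.0% of the lncRNA TPM, against 31.3 to 57.2% in the other 8 libraries, and its median-of-ratios factor over 10027 mRNAs was 0.485, against 0.833 to 1.43 elsewhere. Most stage results below are therefore given with deposited TPM and after division by these factors (scaled TPM). Values of single lncRNAs are deposited TPM, and their overlaps and ranks hold for that scale unless scaling is named. On the scaled TPM the B lineage list summed to 1869 to 2386 (1D), 2907 to 3272 (13D) and 3532 to 4873 (26D), with no overlap between the stages. The most abundant gene of the list was CD74, with means of 1078 (1D), 1683 (13D) and 1765 deposited TPM (26D). JCHAIN had its highest mean at 1D, with 464 (1D), 277 (13D) and 365 TPM (26D).

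Of the 200 lncRNAs, 35 are listed as protein coding in RefSeq, so the name lncRNA does not hold for all of them there. The gene number of 80 of the 200 has an entry in the RefSeq table of a later pigeon assembly (bColLiv1.pat.W.v2), and 35 of these entries are protein coding and 45 are lncRNAs, while 120 gene numbers have no entry there. Protein coding entries made up 17.5% of the 200, against 2.35% of the other 2340 annotated lncRNAs (55 of 2340). By rank the share was 80% at ranks 1 to 20 (16 of 20), 20% at ranks 21 to 50, 10% at ranks 51 to 100 and 8% at ranks 101 to 200. No gene number of the 200 is also in the mRNA values. The 200 are called lncRNAs below because the deposited values list them so. Only gene numbers were matched, so whether the transcript behind a value is the coding mRNA of its RefSeq entry was not checked. Clauses below on what a protein does describe the RefSeq gene.

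**Figure D1:**
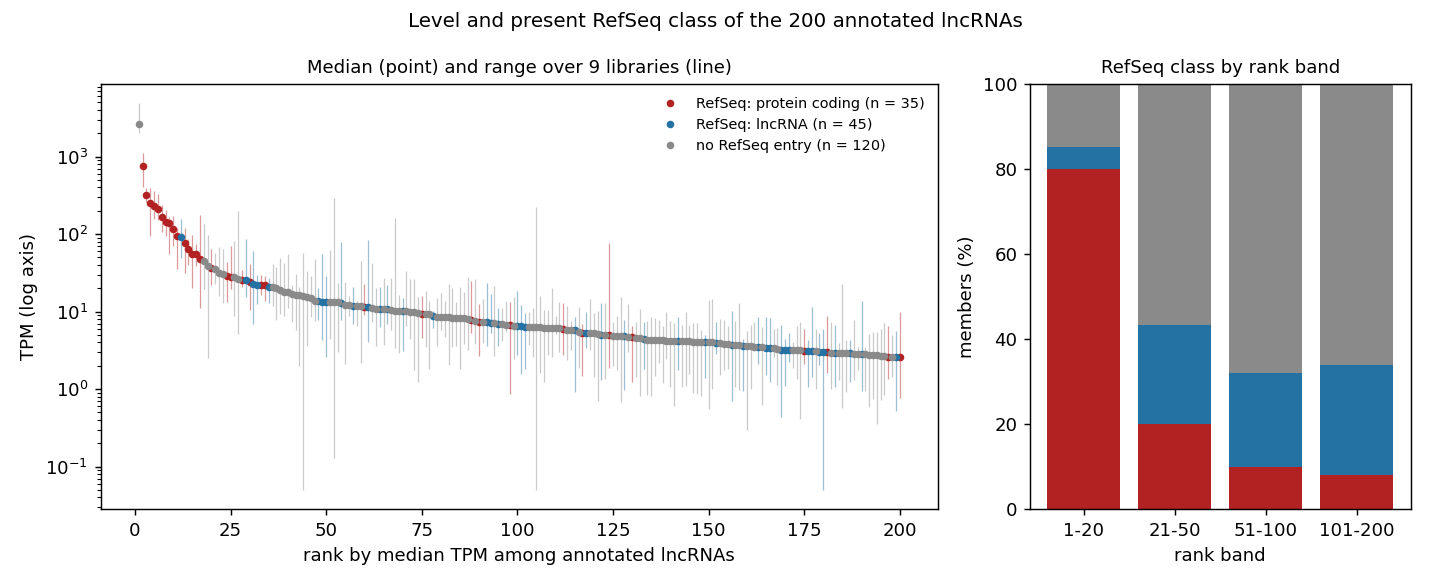
Left, median TPM (point) and range over 9 libraries (line) of the 200 lncRNAs, ordered by rank on a log axis, with values listed at 0 drawn at 0.05 TPM. Right, the share of each rank band by RefSeq class, in the same colours, where protein coding entries fill 80% of ranks 1 to 20 and 8% of ranks 101 to 200.

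The levels spanned 3 orders of magnitude on the TPM scale, with medians between 2663 and 2.59 TPM. Of the 200 lncRNAs, 10 had a median over 100 TPM, 71 over 10 TPM and 78 under 5 TPM. Set against all 19129 lncRNAs, only 12 of the 200 were among the 100 with the highest median. Together they summed to between 6618 and 8825 TPM in a library, which was 1.24 to 2.21% of the lncRNA TPM but 85.5 to 95.6% of the TPM of annotated lncRNAs. The mean sum was 7501 ± 558 (1D), 7942 ± 893 (13D) and 7485 ± 1052 TPM (26D, ± SD, n = 3 squabs each), so the stages overlapped.

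A single transcript carried much of this sum. GeneID:102084414, which has no RefSeq entry, was listed at 2016, 3407 and 2023 (1D), 2663, 3049 and 2798 (13D) and 4910.4, 2336 and 2559 TPM (26D). The highest of these values was in 26D replicate 1, and the 3 stages overlapped. It made up 28.1 to 56.7% of the summed TPM of the 200 in a library, and without it the mean sum was 5019 (1D), 5105 (13D) and 4217 TPM (26D).

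The other 9 lncRNAs with a median over 100 TPM are all protein coding entries in RefSeq. LOC102089087 had 645, 408 and 547 (1D), 917, 952 and 768 (13D) and 1098, 757 and 533 TPM (26D). Its 13D libraries lay above all of 1D, whereas 26D overlapped both other stages with deposited TPM. After scaling, each 26D library of LOC102089087 was above each 1D library as well. LOC102090588 had 260.0, 295 and 347 (1D), 272, 391 and 266 (13D) and 371, 316 and 344 TPM (26D), and the stages overlapped.

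RNF31 is the catalytic subunit of the ubiquitin ligase complex that builds linear chains in NF-kB signalling. It was listed at 119, 95.5 and 392 (1D), 253, 256 and 285 (13D) and 241, 278 and 247 TPM (26D). The 1D libraries held both its lowest and its highest value, while the 6 later libraries lay between 241 and 285 TPM. RASAL3, a Ras GTPase-activating protein of blood cells, had 20.4, 20.1 and 97.7 (1D), 55.5, 41.1 and 78.5 (13D) and 33.7, 69.8 and 67.8 TPM (26D). In both genes 1D replicate 3 was the highest of the 9 libraries with deposited TPM. After scaling, the highest was 26D replicate 1 in RNF31 and 13D replicate 3 in RASAL3.

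CD164, a sialomucin in cell adhesion, had 362, 231 and 207 (1D), 327, 362 and 214 (13D) and 158, 207 and 236 TPM (26D). DAD1, a subunit of the oligosaccharyltransferase that glycosylates proteins in the endoplasmic reticulum, had 333, 173 and 162 (1D), 273, 310.4 and 211 (13D) and 169.9, 150.2 and 211 TPM (26D). In both, 1D replicate 1 lay above the other 1D libraries. The 3 stages of CD164 overlapped, whereas in DAD1 only 1D overlapped both other stages, and each 26D library was below each 13D library, the nearest by less than 1 TPM. After scaling, 13D and 26D of DAD1 overlapped. C4H4orf46 had 115, 105 and 129.7 (1D), 235, 178 and 167 (13D) and 187, 210.3 and 147 TPM (26D), so that each of the 6 later libraries was above each 1D library.

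Of the protein coding entries, 5 with a known role in mitochondrial respiration are given first. NDUFA7, an accessory subunit of complex I, had 119, 94.2 and 203 (1D), 102, 143 and 163 (13D) and 148, 95.7 and 148 TPM (26D). NDUFC1, another accessory subunit, had 52.4, 64.7 and 72.7 (1D), 54.1, 64.7 and 85.2 (13D) and 39.6, 73.4 and 69.7 TPM (26D), and the stages overlapped in both. NDUFB4 ranged from 20.6 to 34.9 TPM, DMAC2, which takes part in complex I assembly, from 10.6 to 41 TPM, and SMIM20, which takes part in complex IV assembly, from 16.3 to 29.2 TPM. None of these 5 was differentially expressed (DE) in any stage comparison.

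The next entries include regulators of transcription, a splicing factor and a deubiquitinase. IRF2BP2, a co-repressor that binds IRF2, had 120.1, 95.5 and 102 (1D), 77, 109 and 58.2 (13D) and 35.1, 62.4 and 93 TPM (26D). HYPK, a cofactor of the N-terminal acetyltransferase NatA, ranged from 54.8 to 168 TPM, and SELENOH, a nucleolar selenoprotein, from 71 to 172 TPM. CREBZF, a bZIP transcription factor, had 29.1, 27.9 and 29.1 (1D), 36.6, 43.7 and 26.9 (13D) and 13.4, 28.7 and 27.7 TPM (26D). Its lowest library was 26D replicate 1 with deposited TPM and 1D replicate 1 after scaling. SS18L2, related to the chromatin remodelling subunit SS18, had 72, 73.3 and 65.5 (1D), 45.9, 47.9 and 50.3 (13D) and 38.7, 56.9 and 54.5 TPM (26D). ACIN1, a splicing factor that also condenses chromatin in apoptosis, ranged from 2.63 to 12.6 TPM and USP21, a deubiquitinase, from 2.79 to 12.8 TPM.

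The remaining symbols were membrane proteins, small proteins and genes without a well known role. PGRMC1, a haem-binding membrane protein, had 71, 47.8 and 29.5 (1D), 28.3, 23.3 and 26.4 (13D) and 19.4, 22.3 and 37.2 TPM (26D). Its lowest 1D library was above 5 of the 6 later ones with deposited TPM and above fewer of them after scaling. SMIM30, a microprotein first annotated as a lncRNA in human, ranged from 21.8 to 64.2 TPM. AIRIM ranged from 13.8 to 28.9 TPM, TMEM234 from 8.91 to 22.9 TPM, C6H10orf143 from 4.58 to 15.9 TPM, C3H1orf115 from 1.45 to 7.01 TPM and TMEM271 from 1.33 to 6.54 TPM. CYS1, a protein of primary cilia, had 4.92, 6.45 and 6.04 (1D), 4.77, 4.63 and 2.38 (13D) and 1.24, 1.58 and 3.57 TPM (26D), with every 1D library above every later one. After scaling, 1D and the later stages of CYS1 overlapped.

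The 45 lncRNAs that RefSeq still lists as lncRNAs lay lower, with a median of their medians of 5.33 TPM, against 28.3 TPM for the 35 protein coding entries and 6.20 TPM for the 120 without an entry. The highest of them, singled out after its values were seen, was LOC110355777 at rank 12, which overlaps MTX2 in the RefSeq order of genes. It was listed at 55.9, 101 and 135 (1D), 91.5, 154 and 116 (13D) and 72, 49.3 and 74.7 TPM (26D). LOC110364949, singled out likewise, which overlaps the protein kinase gene PRKCE, had 19.5, 11 and 18 (1D), 38, 60.9 and 27.7 (13D) and 6.92, 41.5 and 22.6 TPM (26D). Each 26D library of LOC110355777 was below each 13D library, and each 13D library of LOC110364949 was above each 1D library, while the other pairs of stages overlapped. After scaling, 13D and 26D of LOC110355777 overlapped as well. Both were highest in 13D replicate 2. Among those without an entry, GeneID:110356728 at rank 18 was the next after GeneID:102084414.

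The limit of the list was not a step in the data. The last 3 inside, GeneID:110359519, LOC110359327 and LOC102084684, had medians of 2.61, 2.61 and 2.59 TPM, and the first 3 outside, LOC110357394, LOC110357616 and GeneID:110361700, had 2.57, 2.57 and 2.51 TPM. Of the 200, 197 were over 0.1 TPM and 164 over 1 TPM in all 9 libraries, 3 were listed at 0 in at least 1 library, and 110 were among the 200 highest annotated lncRNAs in each single library.

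Stage changes were tested with limma on log2(TPM + 0.1) over all 19129 lncRNAs. DE lncRNAs had to change by more than 1 on the log2 scale with an adjusted p (Benjamini-Hochberg, over all lncRNAs) under 0.05. All fold changes are on the log2(TPM + 0.1) scale, given ± SE, with the later stage over the earlier one. The 3 libraries of a stage are separate squabs, bought by the authors from the same breeding plant. No sampling or sequencing batch is stated, so a batch that followed stage could not be told apart from age.

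In 13D and 26D vs. 1D, 2 of the 200 lncRNAs were DE (1%), both lower after 1D, against 231 of all 19129 lncRNAs (1.21%, or 1.06% lower). They were NREP, a protein coding entry, and GeneID:110360907, which has no entry. None of the 45 RefSeq lncRNAs was DE in this comparison. At an unadjusted p under 0.05 there were 18 of the 200 (9%) against 14.4% of all lncRNAs. In 17 of the 200 (8.5%) the 6 later libraries did not overlap the 3 of 1D, against 7.55% of all lncRNAs, so with deposited TPM the shares of the 200 were near or below the background.

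NREP encodes a small protein that is known from myofibroblasts, where it acts with TGF-beta. It was listed at 76.8, 32.9 and 24.1 (1D), 8.36, 1.85 and 2.64 (13D) and 2.33, 2.28 and 4.95 TPM (26D). Every later library was below every 1D library, and 13D replicate 1 was the highest of the later 6. Its log2 fold change was -3.57 ± 0.59 in 13D and 26D vs. 1D (limma, Benjamini-Hochberg adjusted p = 0.00473). Without 1D replicate 1 the log2 fold change was -3.09 and the adjusted p was 0.0761.

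GeneID:110360907 had 47.3, 39.4 and 62.3 (1D), 7.69, 8.46 and 13.2 (13D) and 4.43, 6.93 and 23.8 TPM (26D). It too was lower in each of the 6 later libraries than in any 1D library, and 26D replicate 3 came nearest. The log2 fold change was -2.38 ± 0.54 (limma, Benjamini-Hochberg adjusted p = 0.0303). Leaving out single libraries gave adjusted p between 0.0363 and 0.169, over 0.05 without any one of the 1D replicates, 13D replicate 2, 13D replicate 3 or 26D replicate 2, while the log2 fold change stayed between -2.65 and -2.17.

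Most genes of several cell type lists were DE lower in the same comparison. The summed TPM of the extracellular matrix and fibroblast list (16 of 17 genes measured) was 1115 to 3020 at 1D, 325 to 639 at 13D and 131 to 580 at 26D, and 13 of its 16 genes were DE lower in 13D and 26D vs. 1D, with 0 higher. COL3A1, a collagen of the connective tissue, averaged 821 (1D), 129.6 (13D) and 60.6 TPM (26D). The smooth muscle list (7 of 8 genes measured) summed to 357 to 783 (1D), 66.4 to 165 (13D) and 22.4 to 192 TPM (26D), with 6 genes DE lower. The endothelium list (8 of 9 genes measured) had 4 genes DE lower, the epithelium list (7 of 13 genes measured) 3 and the neurons and glia list (6 of 8 genes measured) 5. After scaling the DE lower genes were 14 of the extracellular matrix and fibroblast list, 6 of smooth muscle, 5 of endothelium, 4 of epithelium and 3 of neurons and glia. The B lineage list had 1 gene DE higher with deposited TPM and 4 after scaling, and the proliferation list (10 genes) none on either scale. Over all 13072 mRNAs 10.7% were DE lower and 0.727% DE higher with deposited TPM. The share of all mRNAs after scaling is not given here, so the scaled marker counts have no background beside them. The part of these cell types in the values of NREP and GeneID:110360907 was not tested.

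GeneID:110356728 had a pattern like that of the DE pair but missed the threshold. The lncRNAs in this paragraph and the next were not DE and were named because their libraries were separate. That separation with deposited TPM is therefore no result. It was listed at 105, 133 and 107 (1D), 28.8, 31.4 and 54.8 (13D) and 34.4, 19.6 and 45.1 TPM (26D), with no overlap between 1D and the later stages. Its log2 fold change was -1.75 ± 0.46 (limma, Benjamini-Hochberg adjusted p = 0.0596), and over its alternatives the adjusted p lay between 0.0455 and 0.188. GeneID:106145834 had 55.3, 49.1 and 30.9 (1D), 17.8, 11.3 and 11.4 (13D) and 13, 11.1 and 28.4 TPM (26D), a log2 fold change of -1.58 ± 0.49, and GeneID:110363679 had 5.26, 10.7 and 7.64 (1D), 3.05, 2.94 and 2.63 (13D) and 0.813, 4.76 and 4.56 TPM (26D), a log2 fold change of -1.42 ± 0.60. In both, every later library was below every 1D library with deposited TPM, and limma gave Benjamini-Hochberg adjusted p of 0.114 and 0.255. After scaling, 1D and 26D overlapped in both.

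In the other direction, GeneID:110362216 had 3.60, 3.62 and 5.40 (1D), 14.1, 19.997 and 10.9 (13D) and 9.31, 17.5 and 12.6 TPM (26D). Each of the 6 later libraries was above each 1D library. The log2 fold change was 1.70 ± 0.50 in 13D and 26D vs. 1D (limma, Benjamini-Hochberg adjusted p = 0.0948), and without 26D replicate 1 it was 1.80 with an adjusted p of 0.0363.

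**Figure D2:**
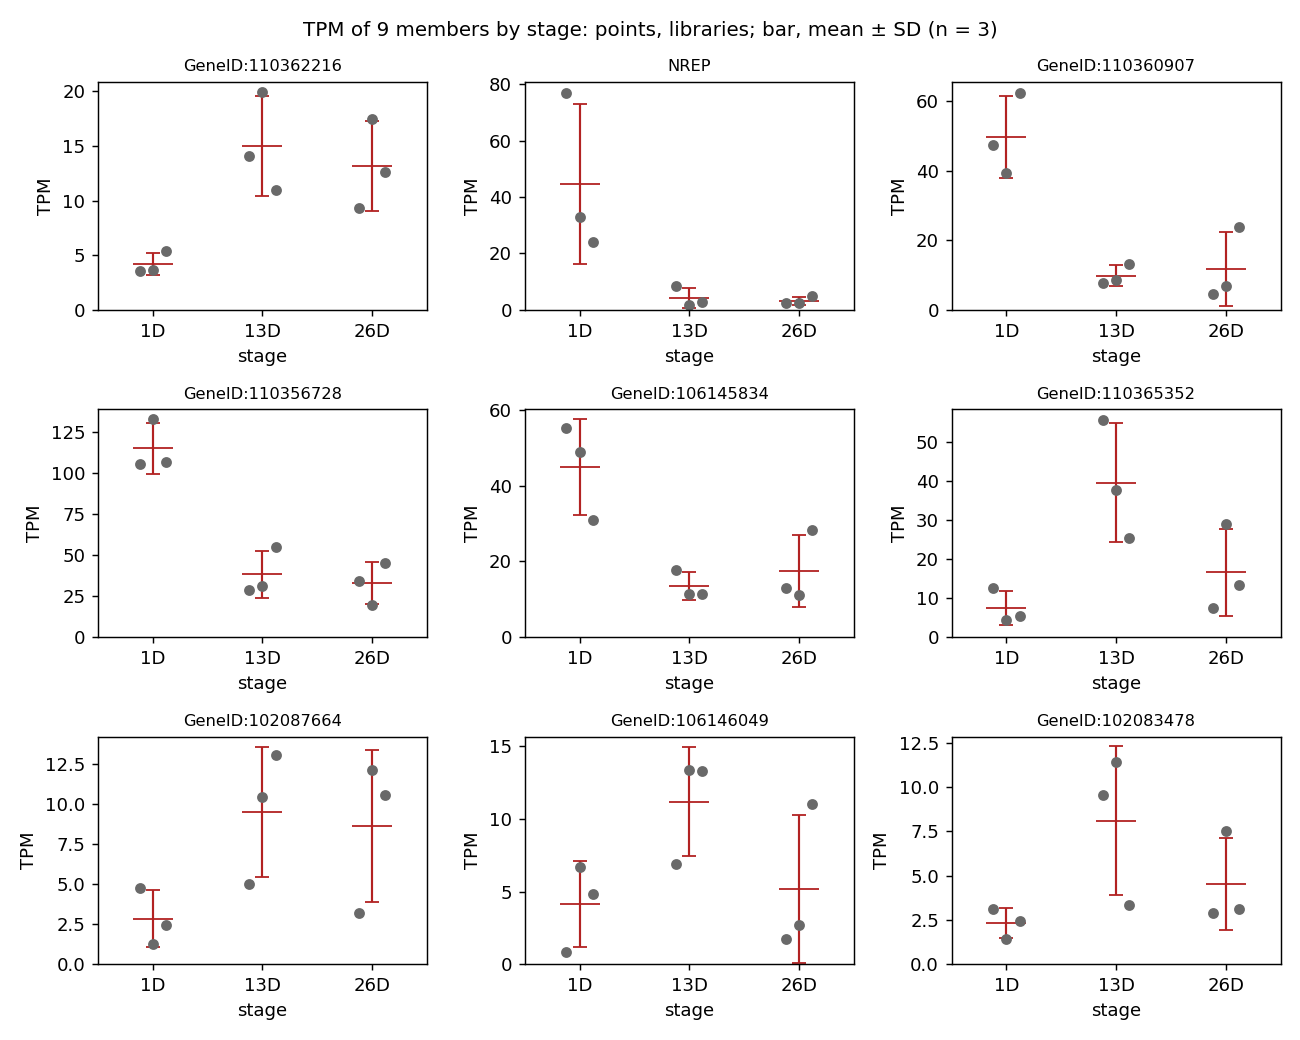
TPM of 9 of the 200 lncRNAs at 1D, 13D and 26D, with a point for each library and red bars for the mean ± SD (n = 3). With these deposited TPM, NREP, GeneID:110360907, GeneID:110356728, GeneID:106145834 and GeneID:110362216 do not overlap between 1D and the later stages, and the y axes differ. Those that were not DE were named because of this separation. After scaling, 1D and 26D of GeneID:106145834 overlap.

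After scaling the TPM, the same comparison called 7 of the 200 lncRNAs (3.5%), 4 higher and 3 lower, against 783 of all 19129 (4.09%, with 0.951% higher and 3.14% lower). Both DE lncRNAs of the deposited TPM were among them. At an unadjusted p under 0.05 there were 32 (16%, against 19.9% of all), 16 higher (8%, against 5.1%) and 16 lower (8%, against 14.8%). The 4 higher were LOC110365352, GeneID:110362216, LOC102087664 and LOC102083478, 3 of which RefSeq lists as lncRNAs. Their log2 fold changes were 1.99, 1.91, 1.88 and 1.45 (limma, Benjamini-Hochberg adjusted p = 0.0175, 0.00887, 0.0348 and 0.0385), against 1.77, 1.70, 1.67 and 1.24 with deposited TPM. The third lower one was GeneID:110357245, listed at 19.9, 12.5 and 10.3 (1D), 6.77, 6.19 and 5.25 (13D) and 2.62, 5.41 and 6.14 TPM (26D). Its log2 fold change was -1.17 with scaled TPM and -1.38 with deposited TPM.

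LOC110365352 lies between USP25 and NRIP1 in the RefSeq order. It had 12.6, 4.33 and 5.51 (1D), 55.8, 37.8 and 25.4 (13D) and 7.50, 28.9 and 13.3 TPM (26D). With these deposited TPM 13D was above all of 1D while 26D overlapped both. LOC102087664, between KCNH1 and RCOR3, had 4.78, 1.29 and 2.46 (1D), 5.04, 10.5 and 13.1 (13D) and 3.23, 12.1 and 10.6 TPM (26D). LOC102083478, which the study also chose for qPCR, had 3.11, 1.45 and 2.47 (1D), 9.55, 11.4 and 3.36 (13D) and 2.92, 7.51 and 3.11 TPM (26D). The authors drew their qPCR targets at random from genes and lncRNAs DE in their own edgeR test, and reported qPCR results that followed their sequencing. In these last 2 the 13D libraries were above the 1D libraries by a small margin with deposited TPM. The lowest value at 13D was 5.04 TPM against a highest of 4.78 TPM at 1D in LOC102087664. In LOC102083478 it was 3.36 against 3.11 TPM. After scaling, every 13D and 26D library was above every 1D library in LOC110365352, LOC102087664 and LOC102083478.

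**Figure D3:**
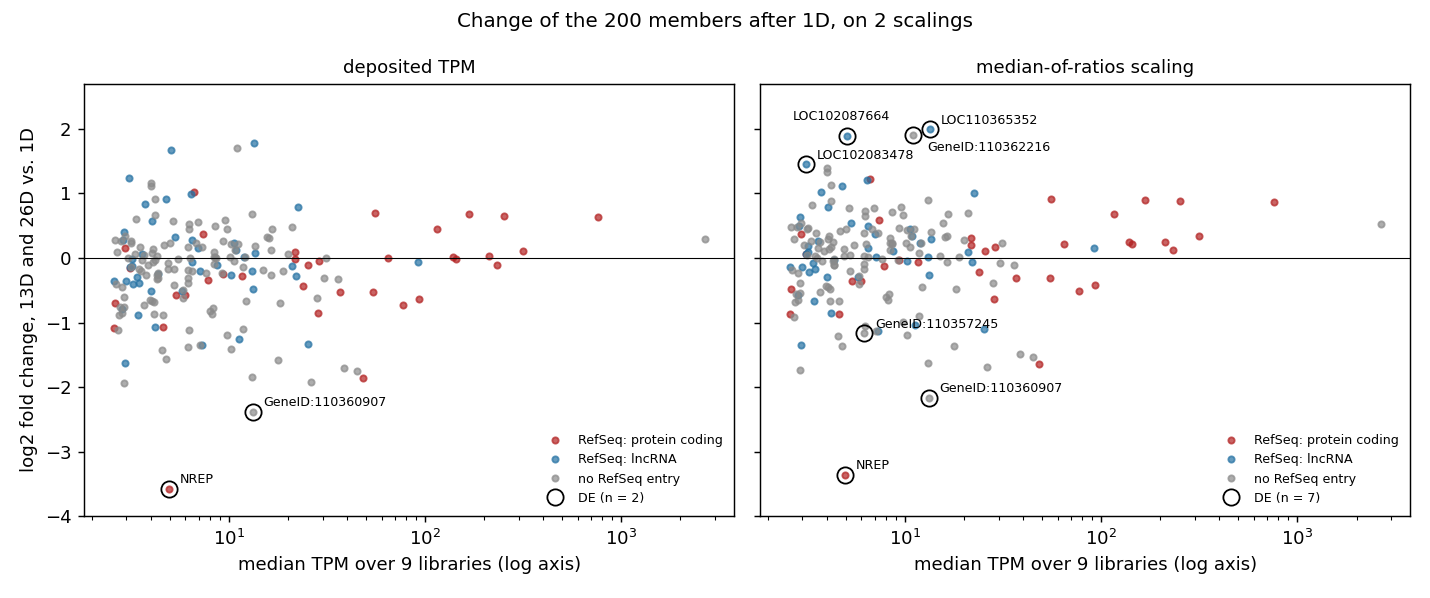
Log2 fold change of the 200 lncRNAs in 13D and 26D vs. 1D against their median TPM on a log axis, with deposited TPM (left) and after median-of-ratios scaling (right). Points are coloured by RefSeq class and circles mark DE lncRNAs, 2 at left and 7 at right.

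The neighbouring stages were set apart next. In 13D vs. 1D none of the 200 lncRNAs was DE, nor was any of the 19129 lncRNAs (0%). At an unadjusted p under 0.05 there were 27 of the 200 (13.5%) against 10.4% of all lncRNAs, with 14 higher at 13D (7%, against 4.14% of all) and 13 lower (6.5%, against 6.28%). No 13D library overlapped the 1D range in 34 of the 200 (17%), against 13.8% of all, with 18 higher (9%, against 5.58%) and 16 lower (8%, against 8.2%). After scaling none of the 200 was DE (0.0523% of all), and 18 were higher (9%, against 7.65%) and 14 lower (7%, against 10.4%) at an unadjusted p under 0.05. On that scale 48 were without overlap (24%, against 23.6%), 33 of them higher (16.5%, against 10.6%) and 15 lower (7.5%, against 13%). The median log2 fold change of the 200 was 0.19, against 0.05 for all lncRNAs and -0.15 for the other annotated lncRNAs.

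Among those with a positive log2 fold change, LOC110365352 averaged 39.6 ± 15.3 TPM at 13D and 7.48 ± 4.47 TPM at 1D (SD, n = 3 each), a log2 fold change of 2.47 ± 0.52 with a limma Benjamini-Hochberg adjusted p of 0.183. GeneID:110362216 followed with 1.79 ± 0.43, LOC102087664 with 1.79 ± 0.59, LOC106146049 with 1.76 ± 0.73 and LOC102083478 with 1.64 ± 0.58. LOC106146049, a protein coding entry, was listed at 0.857, 6.66 and 4.85 (1D), 6.87, 13.4 and 13.3 (13D) and 1.77, 2.73 and 11.1 TPM (26D), where 1D and 26D overlapped. The 5 named lower ones were NREP at -3.47 ± 0.65, GeneID:110360907 at -2.35 ± 0.41, GeneID:106145834 at -1.72 ± 0.41, GeneID:110356728 at -1.64 ± 0.40 and GeneID:110363679 at -1.37 ± 0.44. None of these 10 was DE, and all were named because 13D and 1D did not overlap, so the lack of overlap is no result. Their limma Benjamini-Hochberg adjusted p lay between 0.141 and 0.453. When lncRNAs had to be over 0.1 TPM in at least 3 libraries, which kept 17534, 3 of the 200 were DE, namely NREP and GeneID:110360907 lower and LOC110365352 higher at 13D, against 0.696% of those tested (0.382% lower and 0.314% higher).

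In 26D vs. 1D again none of the 200 and none of all lncRNAs (0%) was DE. At an unadjusted p under 0.05 there were 22 of the 200 (11%) against 16.7% of all lncRNAs, with 2 higher at 26D (1%, against 1.26% of all) and 20 lower (10%, against 15.4%). Both stages were without overlap in 34 of the 200 (17%) against 22.7%, with 3 higher (1.5%, against 1.42%) and 31 lower (15.5%, against 21.3%). The split changed with the scale. After scaling none of the 200 was DE (0.0314% of all), and 11 were higher (5.5%, against 3.38% of all) and 11 lower (5.5%, against 13.4%) at an unadjusted p under 0.05. On that scale 25 were without overlap (12.5%, against 22.4%), 14 of them higher (7%, against 4.71%) and 11 lower (5.5%, against 17.6%). The median log2 fold change was -0.44 for the 200 and -0.65 for all lncRNAs, and after scaling 0.062 and -0.27.

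The 5 lowest log2 fold changes with separate libraries and an unadjusted p under 0.05 were those of NREP at -3.68 ± 0.62, GeneID:110360907 at -2.42 ± 0.65, GeneID:110359885 at -2.09 ± 0.76, GeneID:110356728 at -1.87 ± 0.52 and GeneID:110365300 at -1.79 ± 0.70, with limma Benjamini-Hochberg adjusted p between 0.0743 and 0.241. GeneID:110359885 had 0.685, 3.13 and 4.66 TPM at 26D, against 12, 4.78 and 15.6 TPM at 1D. GeneID:110365300 had 0.353, 1.81 and 1.81 TPM at 26D, against 4.66, 2.92 and 4.68 TPM at 1D. In both the lowest library was 26D replicate 1. The one higher lncRNA that met the same rule was GeneID:110362216, at 1.60 ± 0.56 with an adjusted p of 0.197 from limma with the Benjamini-Hochberg method. With the 3-library requirement NREP and GeneID:110360907 were DE lower at 26D, with adjusted p of 0.00300 and 0.0384 from limma with the Benjamini-Hochberg method, against 2.48% of all lncRNAs tested (2.29% lower).

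In 26D vs. 13D none of the 200 was DE (0% of all lncRNAs), and none was under any of the alternatives run. At an unadjusted p under 0.05 there were 9 of the 200 (4.5%), all lower at 26D, against 5.73% of all lncRNAs (5.33% lower), and both stages were without overlap in 22 (11%), all lower, against 11.8% (11.3% lower). After scaling, not all were lower. There were then 2 higher (1%, against 1.35% of all) and 5 lower (2.5%, against 3.93%) at an unadjusted p under 0.05, and 20 without overlap (10%, against 10.2%), 9 of them higher (4.5%, against 2.05%) and 11 lower (5.5%, against 8.17%). The median log2 fold change was -0.60 for the 200 and -0.72 for all lncRNAs, and after scaling it was 0.023 and -0.25. The 5 named ones, GeneID:110362366, GeneID:110359414, GeneID:110360207, GeneID:110362153 and GeneID:110355904, have no RefSeq entry and medians under 4 TPM. They were named because their libraries were separate with deposited TPM. The most even of them was GeneID:110355904, with 0.910, 1.25 and 1.30 TPM at 26D, against 3.36, 3.03 and 3.07 TPM at 13D, a log2 fold change of -1.39 ± 0.41, which was -0.79 after scaling. GeneID:110362153 had 2.12, 0.994 and 3.88 TPM at 26D, against 5.42, 7.39 and 5.20 TPM at 13D, and a log2 fold change of -1.50 ± 0.56. The libraries of GeneID:110355904 did not overlap on either scale, whereas those of GeneID:110362153 overlapped after scaling.

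The stage at which a lncRNA was highest depended on the scale. With deposited TPM the highest stage mean was at 1D in 68, at 13D in 118 and at 26D in 14 of the 200, and the lowest was at 26D in 140. Over all lncRNAs the highest mean was at 1D in 44.3%, at 13D in 50.4% and at 26D in 5.24%. After scaling, the 200 were spread almost evenly, with 61 highest at 1D, 70 at 13D and 69 at 26D, against 45.1%, 38.9% and 16.0% of all lncRNAs. On that scale 26D replicate 1, divided by 0.485, held the highest value of 44 of the 200, the most of any library. Its part in the scaled 26D means was not tested.

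The libraries were not shifted alike. Relative to each lncRNA's own mean over the 9 libraries, the median deviation of the 200 on the log2 scale was -0.99 in 26D replicate 1 and between -0.21 and 0.52 in the other 8 libraries. That library held the lowest value of 125 of the 200 with deposited TPM and of 36 after scaling. It held the highest value of 3 with deposited TPM and of 44 after scaling. In the other 2 libraries of 26D the median deviation was 0.01 and -0.03. The median log2 fold change of the mRNAs in 26D vs. 1D was -0.52 with deposited TPM. The scaling factors are computed from mRNAs, so the scaled mRNA median, near 0 by construction, is no separate measure.

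**Figure D4:**
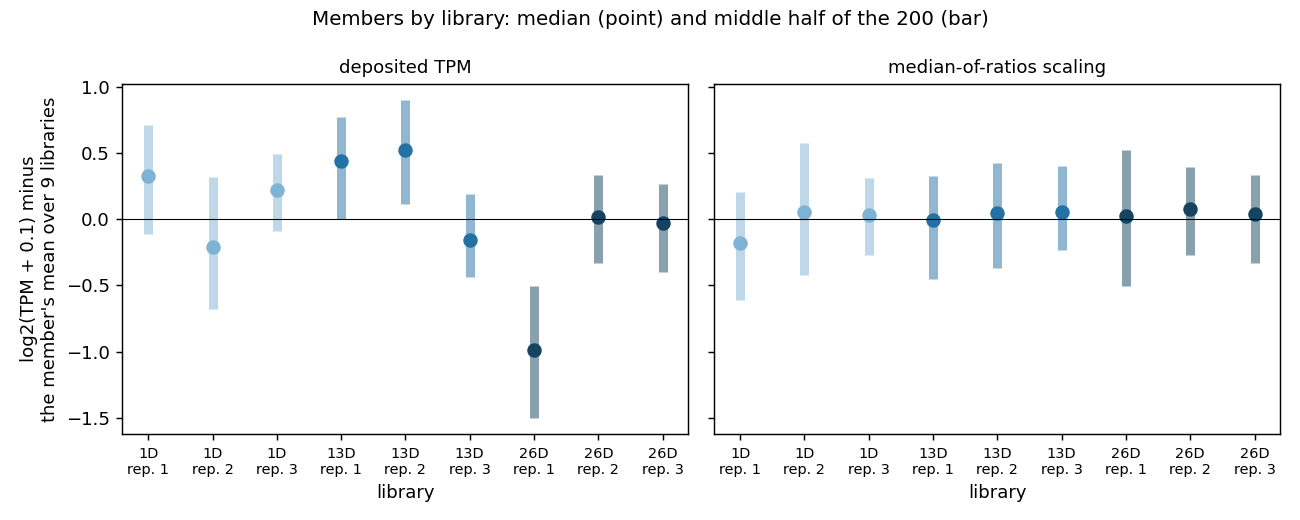
Deviation of the 200 lncRNAs from their own mean over 9 libraries, on the log2(TPM + 0.1) scale, with the median (point) and the middle 50% (bar) in each library. With deposited TPM (left) 26D replicate 1 lies at -0.99, and after scaling (right) all 9 medians lie between -0.18 and 0.08.

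The RefSeq classes had like medians. In 13D and 26D vs. 1D the median log2 fold change was -0.11 for the protein coding entries, -0.12 for the RefSeq lncRNAs and -0.12 for those without an entry, against -0.30 for all lncRNAs. After scaling it was 0.11, 0.10 and 0.09, against -0.14 for all lncRNAs. In 26D vs. 13D they lay further apart, at -0.26, -0.59 and -0.72 with deposited TPM and at 0.37, 0.02 and -0.09 after scaling, differences that were not tested.

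The spread between squabs of a stage was measured as the SD of log2(TPM + 0.1) within a stage, pooled over the 3 stages. Its median over the 200 was 0.66, against 0.70 for the other annotated lncRNAs, 0.77 for the assembled lncRNAs and 0.52 for mRNAs, the last on log2(TPM + 0.5). By stage the median SD of the 200 was 0.54 at 1D, 0.54 at 13D and 0.73 at 26D, and 26D had the largest SD in 99 of the 200 (49.5%), against 44.2% of all lncRNAs. After scaling the pooled median was 0.52 for the 200 and 0.56 for all lncRNAs, and 26D had the largest SD in 79 (39.5%), against 43.0% of all lncRNAs.

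Of the 200, 56 had a pooled SD under 0.5 and 31 over 1. Protein coding entries were the most even with deposited TPM, with a median SD of 0.49, against 0.66 for RefSeq lncRNAs and 0.75 for those without an entry. After scaling these were 0.52, 0.50 and 0.54. The classes also differ in level. By rank the median SD with deposited TPM was 0.43 at ranks 1 to 20 and 0.58 at ranks 21 to 50. It was 0.73 at ranks 51 to 100 and 0.69 at ranks 101 to 200. Class and level were not told apart here. With deposited TPM the smallest SDs were those of SS18L2 (0.19), GeneID:110365633 (0.20), LOC102094178 (0.21), LOC102090588 (0.23) and C4H4orf46 (0.23). After scaling their SDs were 0.39 for SS18L2, 0.47 for GeneID:110365633, 0.58 for LOC102094178, 0.52 for LOC102090588 and 0.47 for C4H4orf46, against the median of 0.52, and none was then among the 5 smallest. LOC102094178, which overlaps MCMDC2, was listed at 8.64, 9.75 and 8.67 (1D), 10.2, 9.38 and 8.18 (13D) and 9.5, 7.61 and 6.11 TPM (26D). GeneID:110365633 had 5.96, 7.66 and 8.73 (1D), 6.18, 6.23 and 5.93 (13D) and 5.10, 5.53 and 6.76 TPM (26D), so that in both no stage stood apart.

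At the other end were 5 lncRNAs with an SD between 1.86 and 3.69, of which 4 have no entry. GeneID:110356008 had 0.443, 291 and 40.3 (1D), 13.1, 0.127 and 2.63 (13D) and 14, 3.49 and 44.4 TPM (26D). GeneID:110362175 had 0, 223 and 30.2 (1D), 6.27, 0.690 and 2.55 (13D) and 7.70, 1.79 and 22.4 TPM (26D). In both, 1D replicate 2 alone held over 50% of the summed TPM of the 9 libraries, and 1D replicate 3 and 26D replicate 3 were the next highest. By the authors' figures, 1D replicate 2 also had the lowest share of mapped reads, and a link to these values was not tested. Whether the pair share reads was not tested.

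GeneID:110356688 was listed at 0 in 1 library at 1D and in 1 at 13D, with 0, 56.9 and 24.9 (1D), 17.1, 7.95 and 0 (13D) and 15.3, 21.5 and 16.1 TPM (26D). LOC110362429 had 4.79, 5.92 and 2.32 (1D), 1.09, 0 and 2.97 (13D) and 0.410, 5.48 and 5.49 TPM (26D), and GeneID:110357932 had 6.31, 64.6 and 89 (1D), 5.03, 10.3 and 3.35 (13D) and 6.90, 18.6 and 163 TPM (26D). In none of these 5 did a stage separate from both others.

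**Figure D5:**
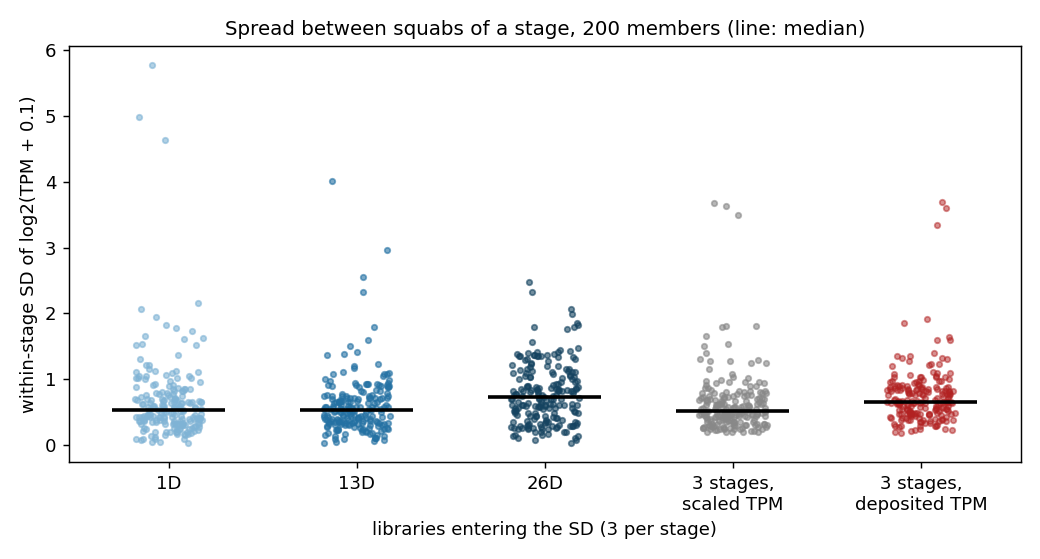
SD of log2(TPM + 0.1) between the 3 libraries of each stage and pooled over the stages, for the 200 lncRNAs (points, with a line for the median). The medians are 0.54 at 1D, 0.54 at 13D, 0.73 at 26D, 0.52 pooled after scaling and 0.66 pooled with deposited TPM.

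The genes next to the RefSeq lncRNAs were looked up in the RefSeq gene order. The 45 RefSeq lncRNAs among the 200 have 107 protein coding genes that overlap them or come directly before or after them, 87 of which are in the mRNA values, and 17 of the 45 overlap such a gene. In 13D and 26D vs. 1D, 5 of these 87 neighbours were DE lower and 0 higher, against 10.7% and 0.727% of all mRNAs. The 5 were RASL11B, DMRT2, RAB40B, RASSF6 and AREG, and none of the neighbours was in a marker list used here.

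Both lncRNAs described next were singled out after their values were seen, besides LOC102083478. LOC102088309, the lncRNA before RASL11B, a small GTPase gene, was listed at 48.3, 85.1 and 30.6 (1D), 25.2, 27.6 and 19.4 (13D) and 15.2, 15.5 and 19.6 TPM (26D). All 6 later libraries were below the 3 of 1D with deposited TPM, with a log2 fold change of -1.33 ± 0.48 (limma, Benjamini-Hochberg adjusted p = 0.177). After scaling, 1D and 26D of LOC102088309 overlapped. RASL11B averaged 78.2 (1D), 23.4 (13D) and 12.7 TPM (26D), a log2 fold change of -2.11 on the log2(TPM + 0.5) scale (limma, Benjamini-Hochberg adjusted p = 0.00167). USP46, on the other side of LOC102088309, had a log2 fold change of -0.06 and was not DE. The LOC102083478 neighbour RAB40B, a Rab family GTPase gene, differed in sign from its lncRNA, with a log2 fold change of -1.46 (limma, Benjamini-Hochberg adjusted p = 0.0244) against 1.24 ± 0.60 for LOC102083478 (adjusted p = 0.344). LOC102083608, which LOC102083478 overlaps, had a log2 fold change of -0.30, and FN3K, on its other side, had -0.27. Neither was DE. LOC102089608 comes next to PTPRC, the gene of the leucocyte surface phosphatase CD45. It had 9.96, 3.88 and 8.21 (1D), 18.4, 11.5 and 5.01 (13D) and 2.78, 6.47 and 4.02 TPM (26D), and the stages overlapped, while PTPRC averaged 208 (1D), 415 (13D) and 315 TPM (26D) and was not DE. Strand is not in the values, so where a lncRNA and a gene overlap, the sharing of reads between them cannot be told apart from separate transcripts.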

How the data were processed

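Total RNA of 9 BFs was depleted of ribosomal RNA and sequenced by the authors as strand-specific libraries, mapped with STAR 2.6.0c, assembled with Cufflinks 2.1.1 and quantified with Kallisto. The authors deposited TPM values for mRNAs and lncRNAs, and kept lncRNAs over 0.1 TPM and mRNAs over 0.5 TPM in at least 1 library. Such values give the proportion of a library, so that an abundant transcript lowers all others. The authors report the reads mapped in each library, but the read count behind each TPM value is not given.

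Stage tests were run in limma 3.58.1 under R 4.3.3, tables and figures in Python 3.11.15 with pandas 2.3.3 and matplotlib 3.10.9. The limma fit (lmFit, then eBayes with trend) took log2(TPM + 0.1), or log2(TPM + 0.5) for mRNAs, over the 6 libraries concerned, and for 13D and 26D vs. 1D over all 9. The authors used edgeR for this step, a count method, which was not used here because the deposited values are TPM. They reported DE lncRNAs between every pair of stages. The limma fit described above, with all 19129 lncRNAs and deposited TPM, found none for any pair. That absence depended on the settings. Under the 3-library requirement, DE lncRNAs numbered 122 (13D against 1D), 435 (26D against 1D) and 0 (26D against 13D). Placing all 9 libraries in 1 fit gave 83, 284 and 1 for these pairs. What lies behind the gap to the authors' counts was not tested. Scaled TPM were divided by median-of-ratios factors over 10027 mRNAs. The limma fit without scaling was run on simulated data for 13D vs. 1D and for 13D and 26D vs. 1D. The simulated libraries had no common shift like that of 26D replicate 1, and the changes put in were all over the fold change threshold. The outcome is not given here and nothing above rests on it. The scaling was not tested in this way.

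The 200 lncRNAs, the marker lists, the tests and the rule for named lncRNAs were chosen with earlier results of these data known. The rule named the 10 highest medians, for each comparison up to 5 higher and 5 lower lncRNAs that were DE, or had an unadjusted p under 0.05, an absolute log2 fold change over 1 and separate libraries, all with a RefSeq symbol, the 3 on either side of rank 200, the 5 largest and 5 smallest SDs, those next to a listed marker, those with a qPCR assay and those with over 50% of their TPM in 1 library. Classes and gene order are from RefSeq (bColLiv1.pat.W.v2), an assembly other than the one the authors mapped to, and coordinates are therefore left out. Same-numbered libraries are different squabs, and the correlation of their deviations lay between -0.22 and 0.17, so the numbers were not used as pairs.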

Additional observations from a re-analysis of the deposited data

How the results depend on the processing

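The counts of DE lncRNAs among the 200 depended on the scale and on single libraries. In 13D and 26D vs. 1D, where 2 were DE, there were 7 with median-of-ratios scaling, 8 with upper-quartile scaling and 8 with median-of-ratios scaling and the 3-library requirement together, an alternative chosen after seeing the data, 3 with all 9 libraries in 1 fit, 2 with the 3-library requirement, and 1 with a pseudocount of 0.01 TPM, without the eBayes trend or among those RefSeq does not list as protein coding. Leaving out each library in turn gave 0 to 4, with 0 without 1D replicate 1, 4 without 26D replicate 1 and 1 without 1D replicate 2, 1D replicate 3, 13D replicate 2, 13D replicate 3 or 26D replicate 2. In 13D vs. 1D the count was 3 with the 3-library requirement, 2 with that and scaling, and 1 with all 9 libraries in 1 fit. In 26D vs. 1D it was 2 in each of these. The replicate block, for numbers that the data did not support as pairs, gave 1 call in 26D vs. 1D (NREP), 2 in 13D and 26D vs. 1D and 0 elsewhere.

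The median log2 fold change of the 200 in 26D vs. 1D was -0.44 with deposited TPM and 0.062 after median-of-ratios scaling, with or without the 3-library requirement, and in 26D vs. 13D -0.60 against 0.023, or -0.011 with upper-quartile scaling. After scaling, the mean summed TPM were 7032 (1D), 6749 (13D) and 10761 (26D). At 26D, replicate 1 held 17832 TPM, whereas replicates 2 and 3 held 6906 and 7544 TPM. With deposited TPM the mean sums were 5019, 5105 and 4217 at 1D, 13D and 26D without GeneID:102084414. For the lncRNAs not listed as protein coding they were 4643, 4698 and 4590. The median within-stage SD was 0.52 after scaling. Other rules for the 200 kept between 189 and 196 of them. For the named lncRNAs 449 values kept their direction and side of the threshold, 19 passed it only under the alternative, 9 lost it and 0 reversed. Most of these lncRNAs were not DE at first, so keeping the side mostly meant staying not DE. Their libraries were separate, so leaving out a single library could not reverse a direction. Much of this tally was therefore fixed in advance. The TPM give no depth, so an absence of DE calls with 3 libraries a stage does not show that levels were equal.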
